A study of Mus musculus with 8 samples.

Results

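The results below follow 8 genes that set where T cells travel and where they stay: the chemokine receptors Cxcr3, Ccr2, Ccr7, Cxcr4 and Cxcr6, the lipid receptor S1pr1, the surface lectin Cd69 and the transcription factor Klf2. The genes were listed by name, with earlier results of these data known, and all 8 were found among the 14455 genes that could be assigned in the deposited per-library table. Cd69 and Klf2 are not homing receptors themselves but control S1pr1, at the protein and at the transcript level. RNA came from C57BL/6 mouse CD4 T cells that were activated in culture with plate-bound antibodies to CD3 and CD28 and driven towards the Th1 state, the interferon gamma-producing helper fate, with IL-12 (2 ng/ml) and an antibody that blocks IL-4 (5 µg/ml). The 4 groups of 2 libraries form 2 experiments. In one, cells were transduced with a short hairpin RNA against Pcbp1, an RNA-binding protein that also carries iron to ferritin, or with a scrambled hairpin, and total RNA freed of ribosomal RNA was sequenced. In the other, cells received ciclopirox olamine (CPX), a chelator of intracellular iron, or its solvent DMSO, and polyA RNA was sequenced. Neither the CPX dose and hours nor the share of transduced cells is stated in the labels. Libraries carry replicate numbers, but nothing says that they came from separate cultures or animals, so p-values measure only the spread between these samples.

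A T cell moves by reading chemokine gradients through receptors coupled to inhibitory G proteins. CCR7 and CXCR4 hold cells in lymphoid tissue, whereas CXCR3, CCR2 and CXCR6 are gained by effector cells and guide them into inflamed tissue. Exit from a lymph node runs through S1PR1, which senses sphingosine 1-phosphate in blood and lymph. After activation CD69 binds S1PR1 and removes it from the surface, and KLF2, which drives transcription of S1pr1, is switched off until the cell rests again.

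Depth was 14174293 to 15518303 gene-assigned reads in the hairpin libraries, and 19193784 to 19662145 units of a rescaled table in the CPX and DMSO libraries. The CPX replicates stood apart: 1773 of 11466 tested genes differed more than 2-fold between them, against 524 for DMSO, 77 of 11575 for the scrambled hairpin and 94 for the Pcbp1 hairpin. Pcbp1 itself was at 44.0 and 51.7 RPM (reads per 1e+06 of the library's total) with the scrambled hairpin and at 15.1 and 16.1 RPM with its own hairpin (log2 fold change -1.73, edgeR's quasi-likelihood test, adjusted p = 3.18e-05). In the CPX experiment Pcbp1 went from 506 and 538 to 238 and 199 RPM (log2 fold change -1.26, limma, adjusted p = 0.00613). All 9 T cell and CD4 T cell markers were present, with a summed level of 1511 to 1728 RPM in the knockdown experiment and 1925 to 3043 RPM in the CPX experiment. The 6 Th1 markers, nearly all Ifng, summed to 50839 and 41321 RPM with the scrambled hairpin, 25212 and 19324 with the Pcbp1 hairpin, 14258 and 24419 with DMSO and 1314 and 5279 with CPX. Tbx21, the Th1 master regulator, was read in every library, at 36.4 RPM or more. The summed CD8 T cell markers Cd8a and Cd8b1 were at 90.5 and 92.0 RPM in replicate 1 of the hairpin groups and at 11.9 and 11.6 RPM in replicate 2, so this level followed the replicate number and not the hairpin. The NK cell markers, mainly Klrk1, did likewise (67.5 and 50.4 RPM against 26.7 and 25.5 RPM), and B cell markers summed to at most 2.70 RPM in any library.

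Promoter sequences in the RefSeq table (build GRCm38.p6, whereas the submitters' processing notes name mm9) matched 5 of the 8 genes: Cxcr3, Ccr2, Cxcr4, Cxcr6 and Klf2. The 250 bases before the start are shown for Cxcr4 and Klf2, which rose together with CPX, and for Cxcr3, which fell. Capitals mark CACCC or its reverse complement GGGTG, letters bound by KLF factors, and ACGTG or GCGTG or their reverse complements CACGT and CACGC, the core letters of the response element of the hypoxia-inducible factors.
Cxcr4, chr1:128592300-128592549, minus strand: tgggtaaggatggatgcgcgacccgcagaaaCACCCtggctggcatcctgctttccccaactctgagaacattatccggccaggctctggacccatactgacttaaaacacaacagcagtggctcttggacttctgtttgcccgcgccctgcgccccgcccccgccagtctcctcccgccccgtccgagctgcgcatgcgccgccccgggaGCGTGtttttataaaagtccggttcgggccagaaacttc
Klf2, chr8:72318812-72319061, plus strand: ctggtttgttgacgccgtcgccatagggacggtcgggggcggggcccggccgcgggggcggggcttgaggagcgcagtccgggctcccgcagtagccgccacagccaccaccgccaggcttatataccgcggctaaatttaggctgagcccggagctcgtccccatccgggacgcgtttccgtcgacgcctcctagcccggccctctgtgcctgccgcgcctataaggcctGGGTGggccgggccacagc
Cxcr3, chrX:101734148-101734397, minus strand: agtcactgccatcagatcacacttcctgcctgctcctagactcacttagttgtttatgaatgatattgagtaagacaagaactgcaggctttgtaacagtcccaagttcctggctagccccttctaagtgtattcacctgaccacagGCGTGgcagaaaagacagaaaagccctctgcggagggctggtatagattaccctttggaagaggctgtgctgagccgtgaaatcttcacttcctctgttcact
Searched over 300 bases, from 250 before to 50 after the start, the Cxcr4 promoter held 1 KLF match, with its first base at -219 from the start, and 1 hypoxia-element match at -39. The Klf2 promoter held 1 KLF match at -19 and no hypoxia-element match, and the Cxcr3 promoter held 1 hypoxia-element match at -103 and no KLF match. These short motifs are common: 57.5% of 32851 promoters of this length held the KLF letters and 43.8% the hypoxia-element letters, the latter added to the search after the values were seen. The letters of the NF-kB motif (50.8% of promoters) were found 5 times in the Klf2 promoter, with 3 of the matches overlapping each other and another sharing its first base with the last base of the KLF match, and 1 time in that of Cxcr3. The NFAT letters GGAAAA (23.4%) were found 2 times in the Ccr2 promoter, and the FOXO letters GTAAACA (3.65%) and AP-1 letters TGANTCA (7.81%) in none of the 5. Both strands were read, and a match describes letters only.

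Per kilobase of the principal transcript, Cd69 and Cxcr6 were the most abundant of the 8 transcripts in control cells. With the scrambled hairpin the mean level was 632 RPM per kilobase for Cd69 and 329 for Cxcr6, then 29.8 for Cxcr3 and 23.0 for Ccr2, whose libraries overlapped. Ccr7 (10.5), Cxcr4 (2.55), S1pr1 (1.60) and Klf2 (0.705) followed, each with both libraries above those of the next. With DMSO the order was Cd69 (555 RPM per kilobase), Cxcr6 (116), Cxcr3 (47.5), Ccr7 (14.7), Ccr2 (13.3), Cxcr4 (3.28), Klf2 (0.995) and S1pr1 (0.519), and the libraries of Ccr7 and Ccr2 overlapped, as did those of Klf2 and S1pr1. The egress receptor and its transcription factor were thus the lowest of the group in both kinds of control cell. Cd69 has a principal transcript of 1687 bases but annotated exons of 6509 bases in all, and with the longer length it ranked below Cxcr6 with both hairpins.

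**Figure D1:**
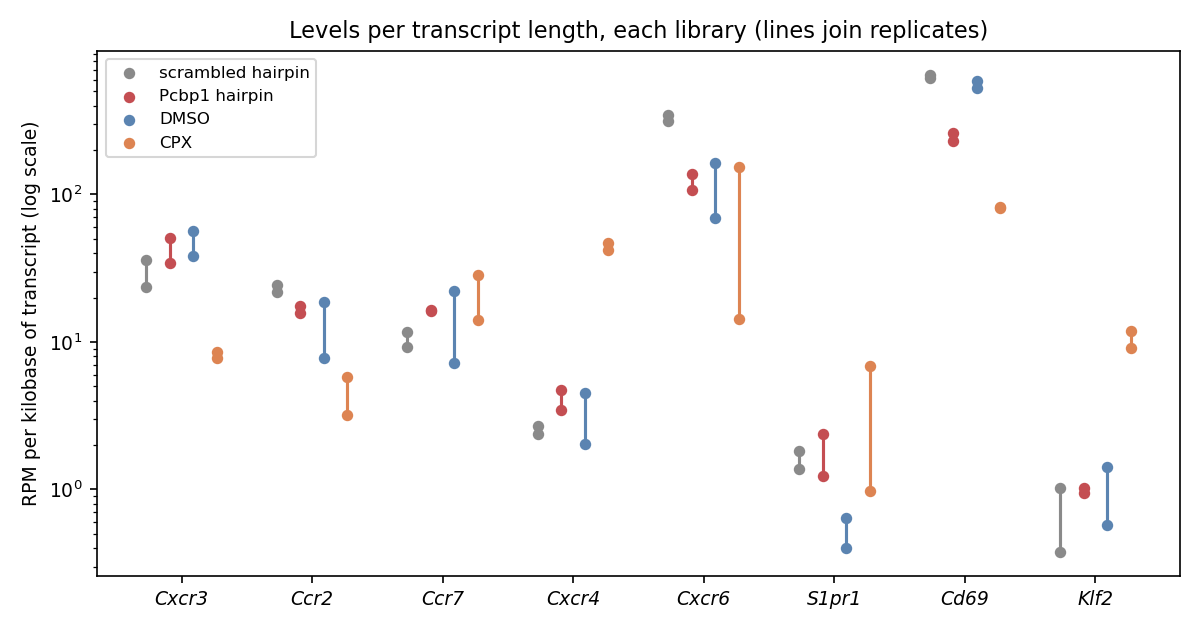
Each point is 1 library's level of a gene in RPM per kilobase of its principal transcript (vertical axis, log scale), by group in colour, with a line joining the 2 libraries. Cd69 and Cxcr6 stand above the other genes in the 3 groups without CPX, and with CPX Cxcr4 stands above Ccr7, Klf2, Cxcr3, Ccr2 and S1pr1.

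With the Pcbp1 hairpin the order was kept at the top, with Cd69 at 245 and Cxcr6 at 123 RPM per kilobase, followed by Cxcr3 (42.3), Ccr2 (16.6), Ccr7 (16.3), Cxcr4 (4.10), S1pr1 (1.82) and Klf2 (0.982). The libraries of Ccr2 and Ccr7, apart with the scrambled hairpin, overlapped here. With CPX the order differed: Cxcr6 (84.1) and Cd69 (81.5) overlapped, and Cxcr4 came next at 44.5, above Ccr7 (21.2), Klf2 (10.4), Cxcr3 (8.16), Ccr2 (4.50) and S1pr1 (3.92). In that order Cxcr4 ranked 3 rather than 6, Klf2 moved above Cxcr3 and Ccr2, and Ccr2 overlapped S1pr1. The first place of Cxcr6 rests on 1 library, since its CPX libraries were at 14.3 and 154 RPM per kilobase and the lower lay below both Cxcr4 libraries (46.8 and 42.1). The place of Cd69 with CPX depends on the length used, since it ranked 4 over the length of all exons.

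The first comparison asks which transcripts change when Pcbp1 is knocked down. Of the 8 genes Cxcr6, Cd69 and Ccr2 fell, Ccr7 rose, and Cxcr3, Cxcr4, S1pr1 and Klf2 did not pass the threshold of an adjusted p of 0.05. Changes were common in this comparison: edgeR called 56.0% of 11575 genes, 29.3% as risen and 26.7% as fallen, so 1 riser and 3 fallers among 8 is near the background. The groups did not overlap for Ccr2, Ccr7, Cxcr4, Cxcr6 and Cd69, 5 of 8, against 78.5% of all tested genes. The median log2 fold change of the 8 was 0.23, beside 0.00 over all genes.

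Cxcr6, the receptor for the membrane-bound chemokine CXCL16, was at 653 and 594 RPM with the scrambled hairpin and at 262 and 204 RPM with the Pcbp1 hairpin. Both knockdown libraries lay far below both controls. The fall was 2.88-fold (log2 fold change -1.53, SE 0.12, edgeR, adjusted p = 4.24e-05).

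Cd69, the early activation antigen that pulls S1PR1 off the surface, was at 1096 and 1037 RPM with the scrambled hairpin and at 390 and 438 RPM with the Pcbp1 hairpin. The replicates were close to each other and the groups did not overlap. The fall was 2.77-fold (log2 fold change -1.47, SE 0.09, edgeR, adjusted p = 2.01e-05).

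Ccr2, the receptor for CCL2 and related monocyte chemoattractants, was at 126 and 139 RPM with the scrambled hairpin and at 89.5 and 101 RPM with the Pcbp1 hairpin, a smaller and non-overlapping shift. It fell (log2 fold change -0.58, SE 0.09, edgeR, adjusted p = 0.000898). Of the 50-base windows of its exons 1.91% also occur in other genes, so reads from these cannot be told apart.

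Ccr7, the receptor for CCL19 and CCL21 that brings naive and central memory cells into lymph nodes, was at 23.1 and 18.3 RPM with the scrambled hairpin. It was at 32.6 and 32.03 RPM with the Pcbp1 hairpin, above both controls. It rose 1.45-fold (log2 fold change 0.53, SE 0.13, edgeR, adjusted p = 0.00869).

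These 4 calls also stand in the authors' deposited table, which calls 43.6% of 11443 genes at the same threshold. That table gives Cxcr6 -1.51, Cd69 -1.46, Ccr2 -0.57 and Ccr7 0.52 on the log2 scale. In a limma fit over all 8 libraries, which shares 1 estimate of spread with the CPX experiment, the Cd69 call held (adjusted p = 0.000971). In that fit the limma values of Ccr2 (adjusted p = 0.448), Ccr7 (0.405) and Cxcr6 (0.317) did not pass.

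Cxcr3, the receptor for the interferon-induced chemokines CXCL9, CXCL10 and CXCL11, was at 40.6 and 62.4 RPM with the scrambled hairpin and at 59.4 and 87.1 RPM with the Pcbp1 hairpin. Replicate 1 was the lower library in both groups and the groups overlapped (log2 fold change 0.40, SE 0.23, edgeR, adjusted p = 0.177). The CD8 T cell markers were high in the same replicate 1 libraries, and their part in the spread of Cxcr3 was not tested. Within each replicate number the Pcbp1 hairpin library was the higher. With all libraries of the experiment but no low-count filter Cxcr3 passed (0.38, edgeR, adjusted p = 0.000865), so the call also depended on the filter. The value rested on which library was in the fit: without scrambled replicate 2 Cxcr3 was called at 0.74 (edgeR, adjusted p = 0.0115) and without Pcbp1 hairpin replicate 1 at 0.67 (0.0111). Without scrambled replicate 1 it was 0.11 (edgeR, adjusted p = 0.654), and without Pcbp1 hairpin replicate 2 it was 0.066 (0.805).

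Cxcr4, the receptor for CXCL12 and a retention signal in bone marrow and lymphoid tissue, was low in this experiment, at 4.30 and 4.89 RPM with the scrambled and at 8.57 and 6.22 RPM with the Pcbp1 hairpin. The groups did not overlap, and the value missed the threshold narrowly (log2 fold change 0.58, SE 0.21, edgeR, adjusted p = 0.0503). It passed under median ratio scaling (edgeR, adjusted p = 0.0482), without a low-count filter (edgeR, 0.0338) and in limma without TMM scaling (0.0301). It did not pass with a filter of 5 RPM (edgeR, adjusted p = 0.0535), in limma after quantile normalization (0.0609) or with DESeq2 (0.169). The log2 fold change was 0.35 without Pcbp1 hairpin replicate 1 and 0.76 without replicate 2. It was 0.48 without scrambled replicate 1 and 0.67 without replicate 2.

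S1pr1 rested on 79 and 60 reads with the scrambled hairpin and on 113 and 54 reads with the Pcbp1 hairpin, or 5.57, 4.19, 7.28 and 3.78 RPM. The groups overlapped fully (log2 fold change 0.08, SE 0.32, edgeR, adjusted p = 0.847). Klf2 rested on 27 and 10 reads against 27 and 27, or 1.90, 0.70, 1.74 and 1.89 RPM. For Klf2 the values did not pass (log2 fold change 0.37, SE 0.44, edgeR, adjusted p = 0.498), without scrambled replicate 1 it was called at 1.25 (0.0498), and without scrambled replicate 2 it was -0.18 (0.708).

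**Figure D2:**
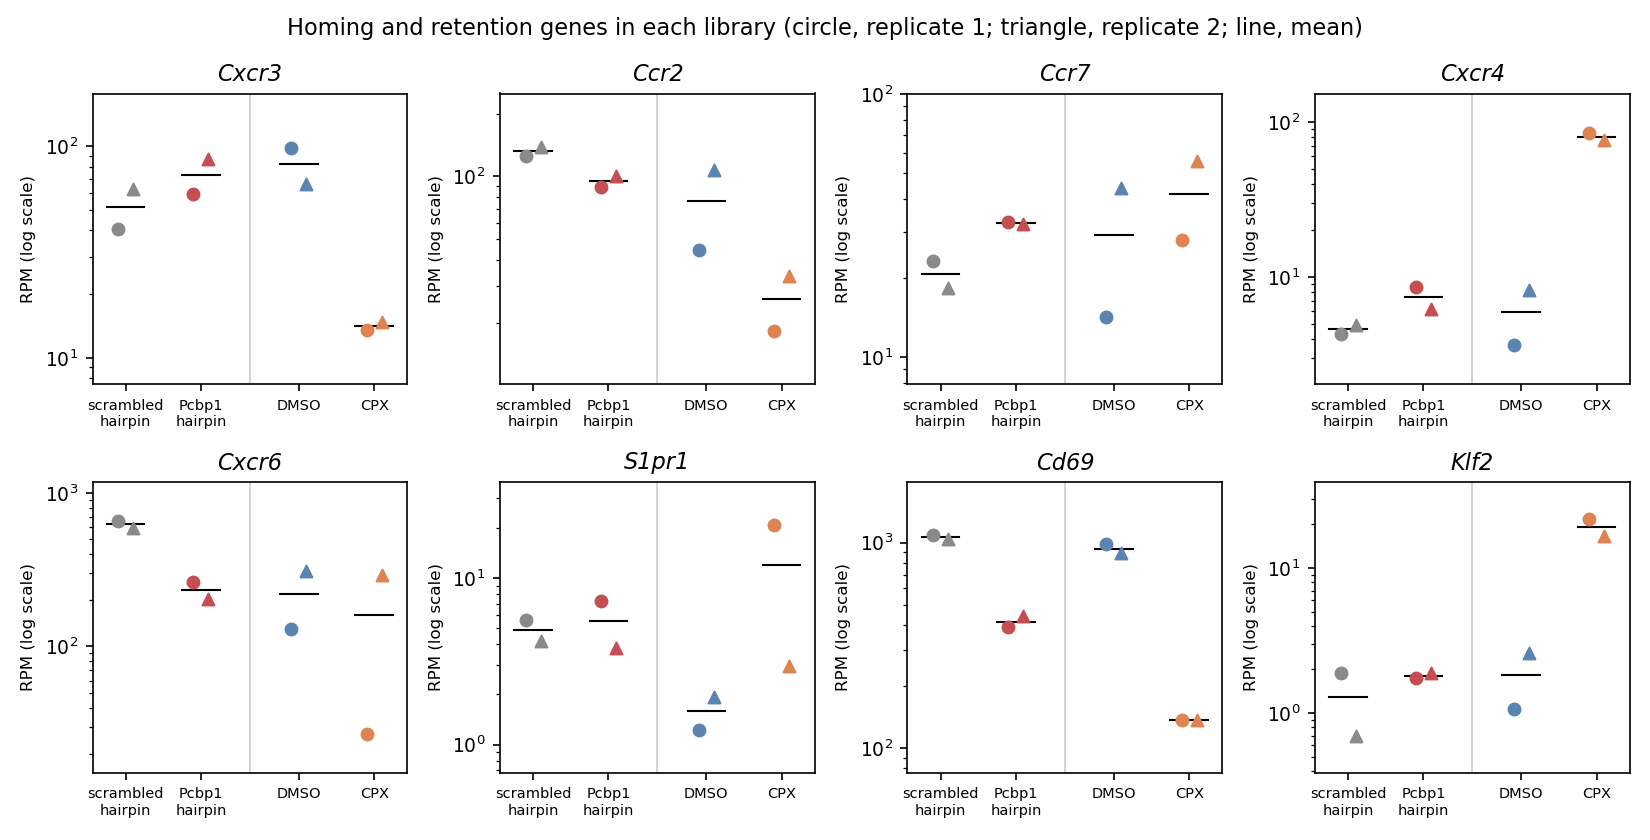
Each panel plots 1 gene in RPM (vertical axis, log scale) by group, with a circle for replicate 1, a triangle for replicate 2 and a line at the mean; the grey line parts the 2 experiments. Cd69 is lower with the Pcbp1 hairpin and with CPX than in either control, Cxcr4 and Klf2 stand apart from the other groups with CPX, and the CPX libraries of Cxcr6 and S1pr1 lie far from each other.

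The second comparison asks which transcripts change when intracellular iron is chelated. With CPX Cxcr4 and Klf2 rose and Cxcr3 and Cd69 fell, while Ccr2, Ccr7, Cxcr6 and S1pr1 did not pass. Here limma called 44.7% of 11466 genes, 19.9% as risen and 24.8% as fallen, against 2 risers and 2 fallers of 8, again near the background. The groups did not overlap for 6 of 8 (Cxcr3, Ccr2, Cxcr4, S1pr1, Cd69 and Klf2), against 76.3% of all genes. The median log2 fold change was -0.26 over the 8 and -0.12 over all genes, and TMM scaling brought the latter to 0.00 and moved each of the 8 up by a similar small amount, which ended no call. Fold changes are on the log2(RPM + 0.5) scale, which understates those of low genes.

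Cxcr4 stood at 3.66 and 8.19 RPM in DMSO cells, against 84.6 and 76.0 RPM in CPX cells. Both CPX libraries were far above both controls. The rise was 13.4-fold (log2 fold change 3.75, SE 0.41, limma, adjusted p = 0.00305).

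Klf2, the quiescence factor that drives S1pr1, stood at 1.07 and 2.61 RPM in DMSO cells, against 21.8 and 16.7 RPM in CPX cells. It went from a trace level to one well above both controls. The rise was 8.88-fold (log2 fold change 3.15, SE 0.44, limma, adjusted p = 0.00455).

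Cd69 stood at 985 and 886 RPM in DMSO cells, against 137 and 138 RPM in CPX cells, the tightest pair of libraries among the 8 genes. The fall was 6.78-fold (log2 fold change -2.76, SE 0.18, limma, adjusted p = 0.00241). In these fits Cd69 was the 1 gene of the 8 called as fallen in both experiments.

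Cxcr3 stood at 98.5 and 65.9 RPM in DMSO cells, against 13.5 and 14.8 RPM in CPX cells. Both treated libraries were below both controls, and the fall was 5.55-fold (log2 fold change -2.47, SE 0.30, limma, adjusted p = 0.00347).

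Since the CPX replicates stood apart, each of these 4 was also fitted with 1 CPX library, which takes the spread from the DMSO pair and assumes that the lone library varies alike. Without CPX replicate 1 limma called 46.4% of genes, and without CPX replicate 2 it called 51.9%. Over both such fits the log2 fold change was 3.67 to 3.82 for Cxcr4, 2.96 to 3.33 for Klf2, -2.76 for Cd69 and -2.53 to -2.41 for Cxcr3. The largest limma adjusted p over 13 alternatives was 0.0246 for Cxcr4, 0.0310 for Klf2, 0.0204 for Cd69 and 0.0225 for Cxcr3, so no alternative ended these calls. The DMSO libraries of Cxcr4 and Klf2 were more than 2-fold apart, and with 1 DMSO library left out the log2 fold change was 3.22 to 4.28 for Cxcr4 and 2.66 to 3.64 for Klf2.

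Ccr2 stood at 44.7 and 108 RPM in DMSO cells, against 18.2 and 33.3 RPM in CPX cells. The groups did not overlap, but the DMSO libraries were far apart and the value did not pass (log2 fold change -1.47, SE 0.51, limma, adjusted p = 0.0621). It passed without DMSO replicate 1 (-2.10, limma, adjusted p = 0.0197) and not without DMSO replicate 2 (-0.84, 0.313) or CPX replicate 1 (-1.05, 0.204). The authors' deposited table calls it (-1.48, adjusted p = 0.00516).

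Cxcr6 stood at 130 and 312 RPM in DMSO cells, against 27.1 and 292 RPM in CPX cells. Only CPX replicate 1 was low, and CPX replicate 2 lay between the DMSO libraries (log2 fold change -1.17, SE 1.10, limma, adjusted p = 0.419). With CPX replicate 1 alone the log2 fold change was -2.87, and with CPX replicate 2 alone it was 0.53, so the sign of this unpaired value rests on 1 library. Within each replicate number the CPX library of Cxcr6 was the lower, by little in replicate 2.

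Ccr7 stood at 14.2 and 43.9 RPM in DMSO cells, against 27.9 and 56.0 RPM in CPX cells, and the groups overlapped (log2 fold change 0.65, SE 0.61, limma, adjusted p = 0.420). Ccr2, Ccr7 and Cxcr6 were all lower in replicate 1 than in replicate 2 of both the DMSO and the CPX group. Within each replicate number Ccr7 was higher with CPX, and Ccr2 and Cxcr6 were lower. Cxcr3 was higher in replicate 1 of the DMSO group. Without DMSO replicate 1 the Ccr7 value was -0.15 (limma, adjusted p = 0.877), and without DMSO replicate 2 it was 1.45 (0.0965).

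S1pr1 stood at 1.22 and 1.94 RPM in DMSO cells, against 20.9 and 2.96 RPM in CPX cells. All of the large shift came from CPX replicate 1, while replicate 2 was a little above the controls (log2 fold change 2.07, SE 0.85, limma, adjusted p = 0.0982). With CPX replicate 1 alone it was called at 3.38 (limma, adjusted p = 0.00613), and with CPX replicate 2 alone it was 0.76 (0.180). The authors' deposited table calls S1pr1 at 2.74 (adjusted p = 0.000285). The 2 libraries with raised Klf2 therefore differed in S1pr1, a transcript that KLF2 is known to drive. Of the 8 genes 6 pass in the authors' deposited table, all but Ccr7 and Cxcr6, as do 41.3% of 15791 genes.

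Markers of other cells moved with CPX too. Of 8 macrophage and monocyte markers 3 could be assigned, Itgam, Cd68 and Emr1, and their summed level was 2.70 and 4.71 RPM in DMSO cells, against 67.3 and 46.2 RPM in CPX cells. Itgam, which activated T cells can also express, made up 49.5 and 25.5 RPM of it. The defining markers Csf1r, Cd14, Lyz2, Fcgr1 and Ms4a7 had no assigned line and were at or near 0 in the authors' deposited CPX table, with mean signals of 1.77, 4.05, 0.26, 0.49 and 2.23. Of 6 dendritic cell markers 4 were assigned, with sums of 2.95 and 3.27 RPM with DMSO and 22.9 and 26.4 RPM with CPX, mostly Itgax. Zbtb46 went from 1.68 and 1.79 to 8.91 and 4.26 RPM, while Siglech and Clec9a had no assigned line and a mean signal of 0 in that table. Of 6 neutrophil markers 1 was assigned, Mpo, at 0.05 and 0 RPM with DMSO and 7.19 and 5.35 RPM with CPX. The others, S100a8, S100a9, Ly6g, Elane and Csf3r, had mean signals of 0, 0.99, 2.45, 0 and 0 in the authors' deposited CPX table. Cxcr4 and Klf2 are expressed in such cells, and the part of other cells in their rise was not tested. Outside these lists Eomes, listed as an NK cell marker, went from 1.78 and 2.51 to 14.5 and 6.08 RPM with CPX. The NK cell markers Ncr1, Klra8 and Klrb1c had no assigned line and mean signals of 0, 0.26 and 5.37 in the authors' deposited CPX table. Col1a1, a fibroblast marker, went from 0.20 and 0.46 to 4.32 and 3.12 RPM, while Col1a2, Col3a1 and Dcn had mean signals of 0 in that table and Pdgfrb 1.30. Summed B cell markers went from 0.66 and 0.51 to 2.29 and 2.70 RPM. Summed CD8 T cell markers were lower with CPX (8.09 and 8.24 against 4.12 and 3.74 RPM), and Klrk1 did not pass. In these bulk samples fewer cells of a type and less RNA per cell cannot be told apart.

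Both effects were then set against each other in 1 limma fit of the 8 libraries, as the knockdown effect minus the CPX effect, each taken within its own experiment. The difference passed for Cxcr3, Cxcr4, Cd69 and Klf2, 4 of 8, where 51.3% of 10430 genes passed (35.2% with the knockdown effect above the CPX effect and 16.1% below). The higher share was 68.7% of all calls here and 53.8% with TMM scaling, as the median difference over all genes moved from 0.40 to 0.04. Under TMM scaling all 4 kept their sign and their call.

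In this fit the knockdown effects, without TMM scaling, were 0.51 for Cxcr3, 0.62 for Cxcr4, -1.37 for Cd69 and 0.45 for Klf2. For Cxcr3 the difference was 2.98 (SE 0.42, limma, adjusted p = 0.00111), since it fell with CPX and did not pass in the knockdown. Cxcr4 gave -3.13 (SE 0.50, limma, adjusted p = 0.00193) and Klf2 gave -2.70 (SE 0.61, limma, adjusted p = 0.00859), both higher with CPX by far more than with the Pcbp1 hairpin. Cd69 gave 1.39 (SE 0.17, limma, adjusted p = 0.000633): it fell in both experiments, and by more with CPX.

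For Ccr2 (1.00, limma, adjusted p = 0.196), Ccr7 (-0.01, 0.992), Cxcr6 (-0.26, 0.891) and S1pr1 (-1.96, 0.171) the difference did not pass. With SEs of 0.59 to 1.36 a difference of several-fold could be missed. Cxcr6 is an example: it fell in the knockdown and not in the CPX test, yet the difference between those effects was not shown. Without CPX replicate 1 it passed at -1.96 (limma, adjusted p = 0.0279), and without CPX replicate 2 it was 1.45 (0.0729). S1pr1 passed without CPX replicate 2 (-3.27, limma, adjusted p = 0.00214) and was -0.64 without CPX replicate 1 (0.343). Ccr2 passed without DMSO replicate 1 (1.63, limma, adjusted p = 0.0291) and was 0.37 without DMSO replicate 2 (0.529).

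**Figure D3:**
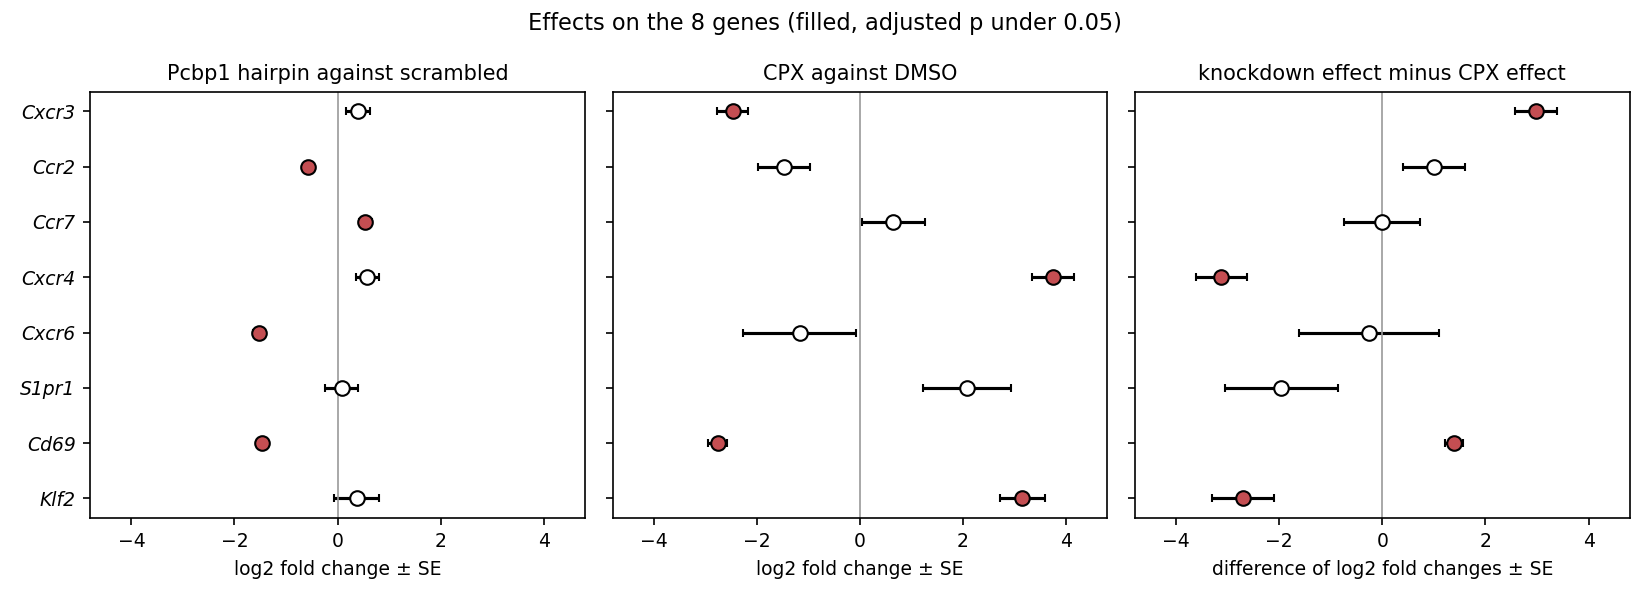
Log2 fold changes with their SE (horizontal axes) for the 8 genes in the knockdown (left), with CPX (middle) and as the knockdown effect minus the CPX effect (right), with filled points where the adjusted p was under 0.05. Cd69 lies left of 0 in both experiments, at -1.47 and -2.76, and Cxcr4, at 0.58 and 3.75, and Klf2, at 0.37 and 3.15, lie far to the right with CPX only.

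Each of the 8 genes was also set beside the genes whose pattern over the 8 libraries, centred on the control group of each experiment, differed from it least. The root mean square difference over the 8 libraries on the log2 scale, among 10430 genes, was 0.157 between Cxcr3 and Smo, a Hedgehog pathway receptor, and 0.195 for Fv1. For Ccr2 the nearest was Il17a, the signature cytokine of Th17 cells, at 0.136, then Stx11 at 0.166. For Cd69 it was Cops3 at 0.203, a subunit of the COP9 signalosome, and for Ccr7 it was Rcan3 at 0.192. Cxcr4 was nearest to Prickle1 (0.210) and Skil (0.256), a repressor of SMAD signalling, and Klf2 to Ppp1r13b (0.302) and Cfp (0.305). Cxcr6, with its split CPX replicates, had no close match, the nearest being 1600012H06Rik (0.469) and the cytokine Il21 (0.573). S1pr1 was nearest to Rapgef4 (0.319) and H2-K2 (0.329).

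Among 14 FOXO and KLF factors and other lymph node homing genes, all tested, 8 rose and 2 fell with the Pcbp1 hairpin (median 0.94, beside 0.00 for all genes), and 9 rose and 0 fell with CPX (median 1.52, beside -0.12). These and the list counts that follow are to be set beside the shares of all tested genes, 29.3% risen and 26.7% fallen in the knockdown and 19.9% and 24.8% with CPX. Klf13 (1.28) and Foxo1 (1.35), a factor that drives Klf2, Ccr7 and Il7r, rose in the knockdown, while Il7r fell (-0.71, edgeR, adjusted p = 0.000129) and Klf2 did not pass. With CPX Klf4, a close relative of Klf2, rose from 1.07 and 0.67 RPM to 28.1 and 31.1 RPM (4.48, limma, adjusted p = 0.00241), with Foxo3 at 2.78 and Klf6 at 2.10. Only 1 DMSO library of Klf4 reached 1 RPM. Klf4 thus met the filter of 2 libraries only with the CPX libraries and could hardly have been called as fallen. At an unadjusted p under 0.05 limma gave 1 faller with CPX, and with either CPX library left out 1 gene was called as fallen. Over the alternatives the number that rose came down to 5 in either experiment. Klf3, among the knockdown risers, went from 0.92 and 0.84 to 2.64 and 1.54 RPM. It passed the filter of 1 RPM only through the Pcbp1 hairpin libraries, so it could only be called as risen.

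Of 20 other chemokine and chemoattractant receptors 7 were tested in the knockdown and 8 with CPX, the rest being too low. In the knockdown 4 fell and 2 rose (median -0.68). Ccr8 was at 12.6 and 12.1 RPM with the scrambled and at 3.48 and 3.15 RPM with the Pcbp1 hairpin (-2.001, edgeR, adjusted p = 5.69e-05), Ccr4, a receptor of Th2 and skin-homing cells, fell by 1.27 on the log2 scale, and Ccr3 rose by 1.49. With CPX 3 fell and 1 rose (median -1.30). Gpr183, which senses oxysterols and places cells within the lymph node, fell from 39.8 and 27.7 RPM to 4.32 and 1.98 RPM (-3.29, limma, adjusted p = 0.00423), Ccr4 was at -2.32, and Cmklr1 rose from 0.051 RPM in both DMSO libraries to 2.29 and 2.08 RPM. Cmklr1 passed the filter of 1 RPM only through the CPX libraries, so it could only be called as risen. With either CPX library left out Cmklr1 fell below the filter on low values and was not tested, and in the knockdown 1 in place of 2 receptors rose without scrambled replicate 1 or Pcbp1 hairpin replicate 2. Of 12 ligands of the 5 chemokine receptors 3 were tested in each experiment. Mif was at 0.81 in the knockdown and -0.995 with CPX, Cxcl10 at -0.73 in the knockdown, and Cxcl16, the ligand of CXCR6, at -2.29 with CPX. Cxcl16 passed the filter only through the DMSO libraries (6.66 and 4.76 against 0.73 and 0.78 RPM), so it could only be called as fallen. The calls of Cxcl10, and of Mif with CPX, were fragile. Cxcl10 lost its call in 7 alternatives, among them DESeq2 (adjusted p = 0.197) and each hairpin library left out in turn. Mif lost its call in 5, among them either DMSO library and CPX replicate 1 left out, with the largest limma adjusted p of 0.183 without DMSO replicate 2.

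Of 12 genes of sphingosine 1-phosphate receptors, synthesis and export, 9 were tested in the knockdown, where 3 rose and 1 fell (median 0.24), and 8 with CPX, where 3 rose and 2 fell (median 0.74). Sgpl1, the lyase that breaks the lipid down, rose in both, by 0.60 (edgeR, adjusted p = 0.00162) and 1.37 (limma, adjusted p = 0.00819). Sgpp1, a phosphatase of the lipid, fell in both, at -0.54 (edgeR, adjusted p = 0.000951) and -2.49 (limma, adjusted p = 0.00409). Sphk2, a kinase that makes it, rose in the knockdown by 0.69, and Mfsd2b, a transporter that exports it, rose with CPX by 2.10. Spns2, also among the CPX risers, went from 0.56 and 0.31 to 2.81 and 12.7 RPM. It passed the filter only through the CPX libraries and so could only be called as risen. Without either DMSO library 1 gene of the list fell with CPX in place of 2, and without scrambled replicate 1 the knockdown count that fell was 2.

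Of 15 genes that desensitise such receptors 13 were tested, with 3 rising and 3 falling in the knockdown (median -0.02) and 6 rising and 6 falling with CPX (median 0.98). Rgs2 rose in both, by 1.203 and 2.48. Grk4, among the CPX risers, went from 0.76 and 0.51 to 1.62 and 2.60 RPM. It passed the filter only through the CPX libraries and so could only be called as risen. Rgs1, which damps chemokine signalling in lymphocytes, was at 2762 and 2759 RPM with the scrambled and at 1763 and 1663 RPM with the Pcbp1 hairpin (-0.80, edgeR, adjusted p = 0.000161). Rgs16 rose in the knockdown (0.66) and fell with CPX (-1.92), and Rgs19 was at -1.31 with CPX, a call lost when either DMSO library was left out. The CPX counts rested on single libraries: 2 rose without DMSO replicate 1 or CPX replicate 1, and 3 fell without DMSO replicate 1 and 2 without DMSO replicate 2.

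Below the receptors, 28 of 29 genes of G protein, PI3K and actin signalling were tested. In the knockdown 14 rose and 7 fell (median 0.29), with the G protein subunit Gnb1 at 1.02, the GTPase Rac1 at 0.85 and Elmo1, which helps activate RAC, at 0.79. With CPX 2 rose and 3 fell (median 0.08), and the fallers were Apbb1ip (-1.68), an adaptor of RAP1, Tiam1 (-1.79), an activator of RAC, and Pik3r5 (-1.75). The Pik3r5 call was lost without DMSO replicate 2 (limma, adjusted p = 0.133), and that of Apbb1ip with the same library left out (0.0533). With CPX 0 rose without DMSO replicate 1 and 1 without CPX replicate 1, while 1 fell without DMSO replicate 2 and 6 without CPX replicate 1.

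Of 12 genes of selectin ligands and their synthesis 4 rose and 1 fell in the knockdown (median 0.10), with B4galt1 at 0.49, Selplg, the P-selectin ligand, at 0.51 and St3gal6 at -0.997. With CPX 2 rose and 6 fell (median -0.94), with the fucosyltransferase Fut4 at -3.56, the sulfotransferase Chst2 at -3.05 and Spn, the sialoprotein CD43, at -2.73. Fut4 passed the filter only through the DMSO libraries (7.12 and 9.82 against 0.36 and 0.16 RPM), so it could only be called as fallen. With CPX 0 rose without DMSO replicate 1 and 3 fell without DMSO replicate 2, and in the knockdown 2 fell without scrambled replicate 1.

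Of 11 tissue residency genes 8 were tested in the knockdown, where 4 rose and 0 fell in edgeR (median 0.36), and 9 with CPX, where 5 rose and 0 fell in limma (median 2.33). Zfp683, among the CPX risers, was at 0.051 RPM in both DMSO libraries and at 10.9 and 1.92 RPM with CPX. It passed the filter of 1 RPM only through the CPX libraries, so it could only be called as risen. At an unadjusted p under 0.05 edgeR gave 1 faller, DESeq2 and limma gave 0 in the knockdown, and limma gave 0 with CPX. Without scrambled replicate 1 the knockdown count that fell was 1, as was the CPX count without DMSO replicate 2. In the knockdown Bhlhe40 rose from 43.5 and 37.5 RPM to 175 and 166 RPM (1.97, edgeR, adjusted p = 8.70e-06), with Nr4a1 at 0.75 and Ahr at 0.64. With CPX Itgae, the CD103 integrin that binds E-cadherin in epithelia, rose from 2.59 and 2.10 RPM to 30.8 and 19.6 RPM (3.15, limma, adjusted p = 0.00319), with Nr4a1 at 2.75 and Cd101 at 2.33. Cd69 itself, the surface mark most used for resident cells, fell in both experiments, as given above.

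**Figure D4:**
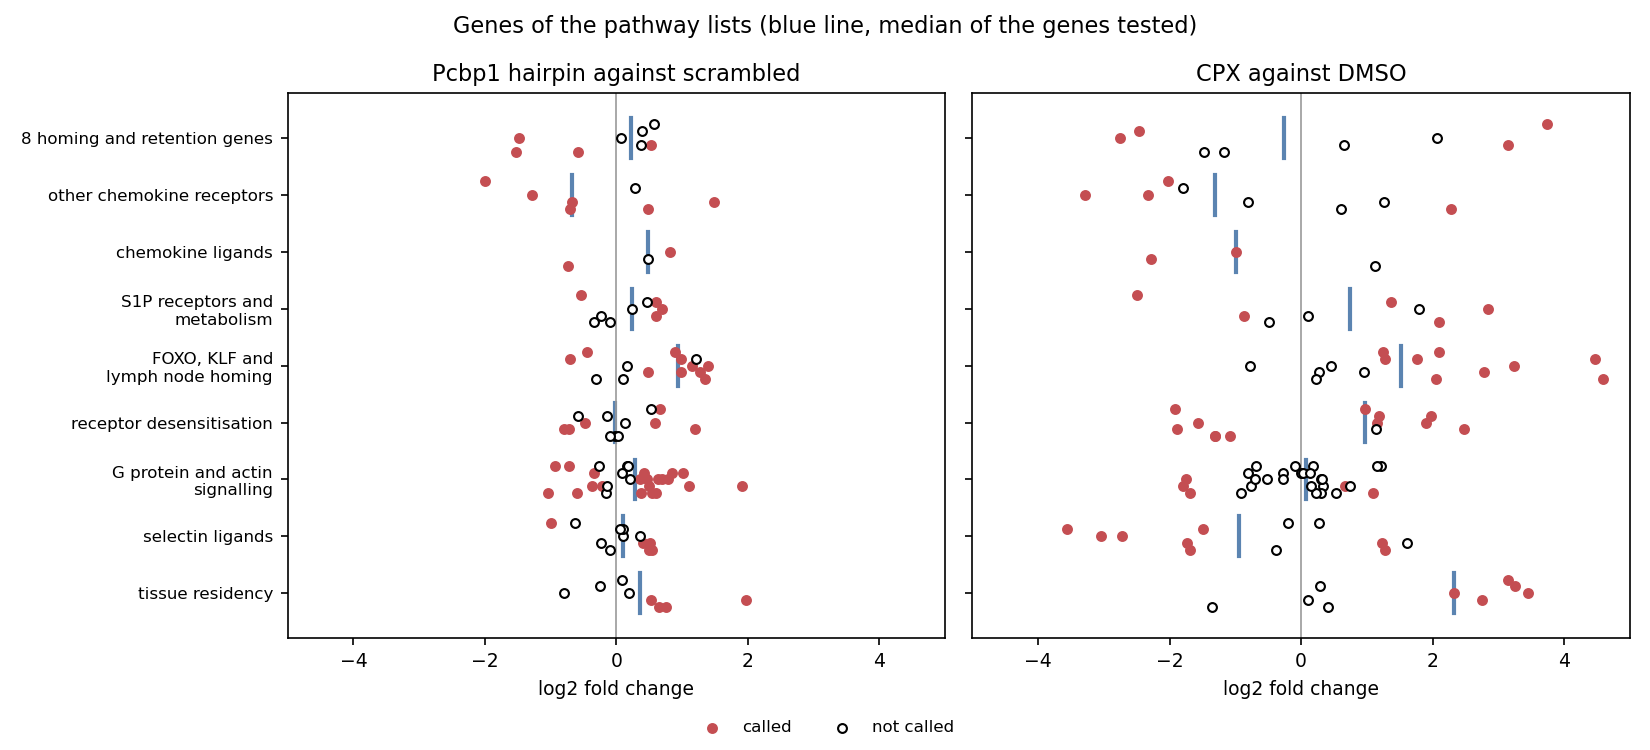
Each point is the log2 fold change (horizontal axis) of 1 tested gene in the Pcbp1 hairpin (left) or CPX comparison (right), by list (rows), filled where the adjusted p was under 0.05, with a blue line at the list's median; vertical offsets only separate points. The medians of the FOXO, KLF and lymph node homing list lie at 0.94 and 1.52 and those of the other chemokine receptors at -0.68 and -1.30.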

How the data were processed

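Reads had been processed with cutadapt, STAR, HTSeq and DESeq on mm9, per the submitters' processing notes, without versions. In the deposited per-library table the hairpin columns hold raw counts per gene. The CPX and DMSO columns are rescaled, rounded values, treated as a score since the authors' factor is not given. The authors' tables hold, per the file headers, a mean signal, log2 fold changes with SEs, a Wald score, p-values and adjusted p-values from DESeq2. They were used to assign names and for comparison.

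Gene labels sit 1 line off from the line labelled Ins1 on, a line that holds 23487630 in every library. Of 33899 lines, 14805 reached a value of 10, and each was assigned by the authors' mean signals in both tables (relative tolerance 2e-09, absolute 1.2): 14455 matched 1 gene, and 350 that matched several were left out. None of the 8 studied genes shares exonic bases with another gene in GENCODE.

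RPM is a value over its library's total (without that line) times 1e+06. The tests took genes that reached 1 RPM in 2 or more libraries of an experiment, all 8 studied genes among them. Counts were tested with edgeR 4.0.16 (quasi-likelihood, TMM). CPX and the difference were tested with limma 3.58.1 (trend) on log2(RPM + 0.5), in R 4.3.3, with Benjamini-Hochberg adjustment over all genes and a threshold of 0.05. SEs for edgeR were worked back from its F statistic. Levels per kilobase use the longest principal transcript in GENCODE (GRCm38). The fits were checked on simulated data with an equal spread in all libraries of an experiment. The wider spread between the CPX than between the DMSO replicates was not simulated. Alternatives were DESeq2 1.42.0, scaling, filters (none, 5 RPM), pseudocounts (0.1, 2), spread, replicate block and each library left out. The members and lists were chosen with earlier results of these data known. Named genes are all 8 members and, from each list, the 3 called genes with the smallest p in each comparison. A few others are named to give a limit of a count or call. The 2 genes nearest each member in pattern are taken by root mean square difference. Some genes counted in the lists are not reported here by name.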

Additional observations from a re-analysis of the deposited data

Results flagged for a closer look

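For 4 genes a limma test of the difference itself found unequal effects in the knockdown and CPX experiments, written as knockdown minus CPX effect on the log2 scale. Cxcr3 differed by 2.98 (0.51 in the knockdown and -2.47 with CPX, both in that fit of all 8 libraries), and Cxcr4 by -3.13 (0.62 and 3.75). Cd69 differed by 1.39 (-1.37 and -2.76) and Klf2 by -2.70 (0.45 and 3.15). Both libraries of each group agreed in direction against their controls for Cxcr4 and Cd69 in both experiments. The experiments also differed in RNA selection, which cannot be told apart from the perturbations here.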

How the results depend on the processing

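The 4 CPX calls and the 4 called differences of these genes held in each alternative run; under the filter of 5 RPM Klf2 was not tested in the knockdown or the difference. Over all alternatives 279 fold changes of the 8 genes were unchanged in call and sign, 21 gained a call, 3 lost one and 12 changed sign. The genes called in the knockdown numbered 6482, and 2617 in limma on all 8 libraries, where 0 of the 8 genes rose and 1 fell. The count that rose in the knockdown, 1, was 2 under median ratio scaling, 2 with limma without TMM scaling, 3 without a filter, 3 with the replicate block and 2 with each single library left out. The CPX count of genes called, 5124, ranged from 2535 (without DMSO replicate 1) to 5512 with single libraries left out, and was 2785 without DMSO replicate 2. Limma without TMM scaling called 4003 rises and 2502 falls in the knockdown, beside 3396 and 3086.

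Same-numbered libraries deviated together with correlations of 0.289 (knockdown) and 0.101 (CPX), but with 2 pairs and no label that says what a number marks, the pairing was not made part of the main design. The CD8 T cell markers and Klrk1 followed the number in the hairpin groups. With the replicate block 7348, 5651 and 5362 genes were called in the knockdown, with CPX and in the difference, and 4 of the 8 genes fell with CPX. It added Cxcr3 (0.41, adjusted p = 0.000364) and Cxcr4 (0.0218) in edgeR's knockdown test, Ccr2 (0.00424), Cxcr6 (0.0404) and S1pr1 (0.0174) in limma's CPX test, and Ccr2 (0.0164) in the difference.

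Signs changed only for values that had not passed. In the knockdown S1pr1 was -0.015 after quantile normalization and -0.11 without scrambled replicate 2, and ranged from -0.46 to 0.44 with single libraries left out. Klf2 ranged from -0.18 (without scrambled replicate 2) to 1.25. With CPX Ccr7 was -0.15 without DMSO replicate 1 and Cxcr6 ranged from -2.87 to 0.53 (without CPX replicate 1). The difference for Ccr7 was 0.16 without scrambled replicate 1, 0.0028 without Pcbp1 hairpin replicate 2, 0.49 without CPX replicate 2 and 0.79 without DMSO replicate 1, down to -0.81 without DMSO replicate 2. For Cxcr6 it was 0.37 without DMSO replicate 1 and ranged from -1.96 to 1.45 (without CPX replicate 2). The cause of these changes was not tested. In the hairpin libraries Klf2 rests on 10 to 27 reads and S1pr1 on 54 to 113, and how much of their SE comes from depth was not tested.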
